A study of Rattus norvegicus with 24 samples.

Results

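Dbp, Tef and Hlf encode the PAR bZIP transcription factors, and 4 probe sets of the Rat 230A array were annotated to exactly 1 of these 3 genes, of 15866 probe sets and 10411 singly named genes measured. The genes were chosen from their measured signals in the 6 exposure groups, so their levels and differences are given as a description without a test. Hearts of male Wistar Kyoto rats, a strain with few spontaneous cardiac lesions that were 12 to 14 weeks old at the first instillation, were compared after weekly intratracheal exposure to particulate matter (PM), to its soluble part or to zinc. Each group had 4 arrays, described by the study as biological replicates, and the tissue was left ventricle with septum.

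The saline group received the vehicle that all other groups shared. The MSH group received ash of Mount St. Helens, a solid PM without water-soluble metals. The PM-HD group received a whole suspension of zinc-rich oil combustion PM, with 14.5 µg/mg soluble zinc and 3.0 µg/mg soluble nickel per the labels. The PM-LD group received the whole suspension at a lower dose, which the labels give as 7.25 µg/mg zinc and 1.5 µg/mg nickel, whereas the methods describe a smaller amount of the same PM. The PM-L group received the leachate, the soluble fraction of the suspension without the solids, and the zinc sulfate group received zinc sulfate, at 14.5 µg/ml per the sample descriptions, whereas the protocol text of the labels states a different concentration. For saline, MSH, PM-HD and zinc sulfate the hearts followed 8 weekly instillations, and the number was not given for PM-LD and PM-L in the sources used here. Rats were kept in 12-hr light and 12-hr dark and were necropsied 48 hr after the last instillation. The hour of the day at which each heart was taken was not given in the sources used here. Exposure group and hour of collection cannot be told apart for any value below.

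PAR bZIP factors are output proteins of the circadian clock, the oscillator in which BMAL1 and CLOCK switch on genes through E-box sites and the PER and CRY proteins switch them off again. DBP, TEF and HLF bind D-box sites and activate genes of metabolism and detoxification, and NFIL3 (E4BP4) binds the same sites as a repressor. Dbp mRNA has one of the strongest daily rhythms of peripheral tissues, the heart included, whereas the mRNA rhythms of Tef and Hlf are weaker. The REV-ERB receptors NR1D1 and NR1D2 repress Bmal1 and are themselves driven through E-boxes.

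The promoter windows of Dbp and Tef are shown whole because these are the 2 of 3 members that matched an entry (Hlf did not), and short stretches of Per2, Bmal1 and Nr1d1 are shown because they hold the D-box, the REV-ERB/ROR element and the E-box of the loop. Windows ran from 250 bases before to 50 bases after the start in RefSeq (GRCr8), are written 5′ to 3′ on the strand of the gene, and have the motifs searched on both strands in capitals. The motifs were the E-box CACGTG, its variant CACGTT, the D-box TTATGTAA and the REV-ERB/ROR element TAGGTCA, and none of the matches shown overlapped another.
Dbp, chr1:105312006-105312305, plus strand: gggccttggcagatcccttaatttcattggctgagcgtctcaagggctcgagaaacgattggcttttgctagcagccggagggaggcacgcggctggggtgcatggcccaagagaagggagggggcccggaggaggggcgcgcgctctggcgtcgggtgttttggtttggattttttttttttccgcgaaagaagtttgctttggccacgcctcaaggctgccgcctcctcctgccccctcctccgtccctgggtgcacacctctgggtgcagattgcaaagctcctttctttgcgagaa
Tef, chr7:115206577-115206876, plus strand: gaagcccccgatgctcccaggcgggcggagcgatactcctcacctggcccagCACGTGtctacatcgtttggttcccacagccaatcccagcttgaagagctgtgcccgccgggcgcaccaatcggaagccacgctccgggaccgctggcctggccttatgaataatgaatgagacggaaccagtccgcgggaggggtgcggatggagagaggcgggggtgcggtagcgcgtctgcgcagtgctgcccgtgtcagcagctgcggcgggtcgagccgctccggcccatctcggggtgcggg
Per2, chr9:99497152-99497211, minus strand: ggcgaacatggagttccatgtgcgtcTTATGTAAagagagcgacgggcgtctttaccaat
Bmal1, chr1:176766285-176766344, plus strand: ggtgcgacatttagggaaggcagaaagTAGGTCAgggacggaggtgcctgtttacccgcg
Nr1d1, chr10:84229613-84229672, minus strand: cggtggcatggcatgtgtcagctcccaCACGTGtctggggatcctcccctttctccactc

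The Tef window held 1 E-box, which began at position -198 relative to the start, and the Dbp window held none of the 4 motifs. The E-box occurred in 6.42% of 33469 promoter windows, its variant in 4.83%, the D-box in 0.893% and the REV-ERB/ROR element in 2.63%. Per2 had its D-box at position -192 and an E-box variant at -62, Bmal1 had the REV-ERB/ROR element at -16, and the second Nr1d1 window had its E-box at -191. E-boxes also lay in the windows of Bhlhe40 at position -220 and Bhlhe41 at -48, and an E-box variant in that of Cry2 at -212. The windows of Nfil3, Nr1d2, Per1 and Per3 held no match, which says only that these letters were not in those 300 bases. A match is a sequence feature and was not tested for binding.

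The arrays carried the transcripts of ventricular muscle. The 7 measured ventricular markers, such as Myh6 and Tnnt2, lay at percentile 99.2 of all probe sets or above, while the lung markers Sftpc, Sftpb and Scgb1a1 lay at percentiles 7.57 to 41.3. The summed signal of the 4 atrial markers Nppa, Myl7, Sln and Myl4 ranged from 2667 to 43220 among arrays, and its range in saline (2667 to 24940) overlapped that of every exposed group. Saline replicate 1 stood apart in its make-up. Its summed lung signal was 1547, against 180.5 to 232 in the other saline arrays and at most 541.8 in the exposed groups. It also had the lowest ventricular sum of all arrays (116100) and the highest atrial sum of the saline group. Its sample title carries a leading number outside the unbroken run of the other arrays and an added suffix, with no reason given. The same array had the highest Dbp signal of the saline group (230.4). The Gapdh ratio (3′ control signal over 5′ control signal), a sign of RNA integrity, ranged from 1.11 to 5.62 and was above 3 in 1 or 2 arrays of every group. Values without those 9 arrays stand beside the members below. They leave out 2 of 4 arrays in each of MSH, PM-HD and PM-L, and the MSH arrays kept are replicates 2 and 3.

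Dbp signals ranged from 124 to 1746 over the 24 arrays. Saline arrays had Dbp signals of 230.4, 200.5, 145 and 124 in replicates 1 to 4 (mean 175 ± 49.0, SD, n = 4). MSH arrays had Dbp signals of 224, 798, 245 and 154 (355 ± 298). MSH replicates 1, 3 and 4 lay among or next to the saline hearts and replicate 2 lay far above them. PM-HD arrays had Dbp signals of 542, 599.8, 228 and 793 (541 ± 235), with replicate 3 at the saline level. PM-LD arrays had Dbp signals of 967, 802, 1222 and 783 (943 ± 203). PM-L arrays had Dbp signals of 1128.5, 762, 1746 and 895 (1133 ± 436). Zinc sulfate arrays had Dbp signals of 1239, 945, 769.6 and 766.5 (930.1 ± 222). Every PM-LD, PM-L and zinc sulfate heart thus had more Dbp signal than any saline heart, as did 3 of 4 PM-HD and 2 of 4 MSH hearts. Probe sets with 4 of 4 arrays above the highest saline array made up 0.927% of all probe sets with PM-LD, 1.24% with PM-L and 0.927% with zinc sulfate. Dbp was not among the 1.05% of probe sets that did so after PM-HD or the 2.14% after MSH. These shares are given for scale, since the signals themselves chose the gene. In tissue RNA, fewer cells of a type and less RNA per cell cannot be told apart.

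**Figure D1:**
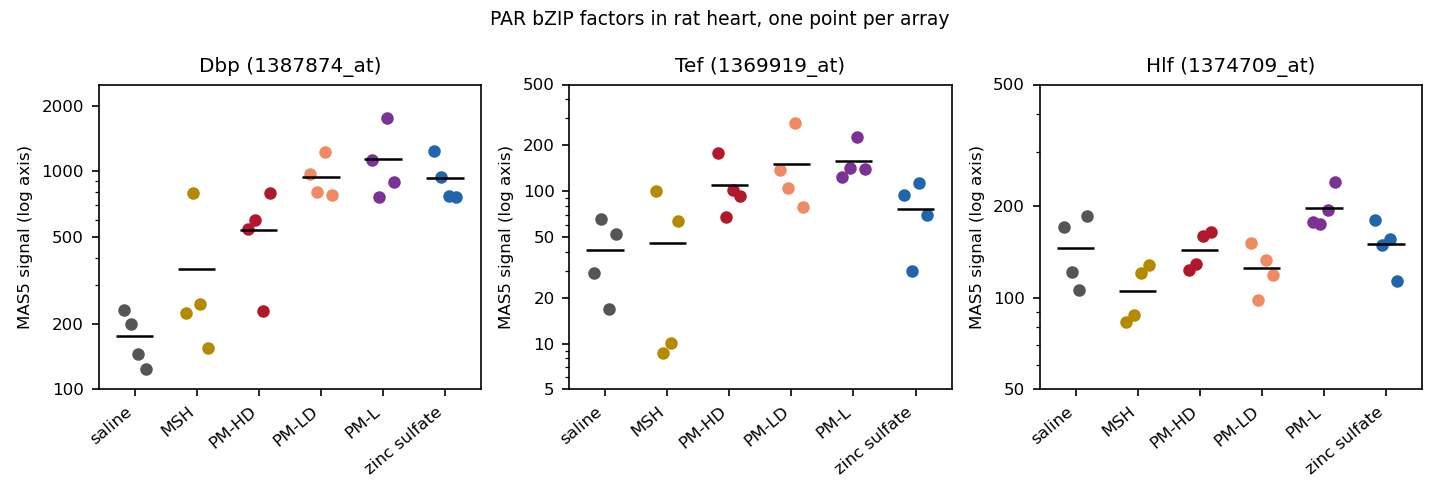
Signals of Dbp, Tef and the brighter Hlf probe set by exposure group, with the MAS5 signal on a log axis that differs between panels, 1 point per array (4 per group, replicates 1 to 4 from left to right) and a bar at the group mean. Dbp in all PM-LD, PM-L and zinc sulfate arrays lies above the highest saline array at 230.4, and MSH replicate 2 at 798 and PM-HD replicate 3 at 228 stand apart from their groups.

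Ordered by signal, the 24 arrays split into a lower set of 8 and an upper set of 16. The eighth array had a Dbp signal of 245 and the ninth 542, a step of 2.21-fold, while no other step between neighbours exceeded 1.41-fold. The lower set held the 4 saline hearts, MSH replicates 1, 3 and 4 and PM-HD replicate 3. The upper set held all other hearts, MSH replicate 2 included. No array of PM-LD, PM-L or zinc sulfate was in the lower set.

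On the scale of quantile-normalized log2(signal + 16), the Dbp difference from saline was 0.68 ± 0.46 (SE) with MSH, 1.45 ± 0.46 with PM-HD, 2.38 ± 0.42 with PM-LD, 2.61 ± 0.42 with PM-L and 2.35 ± 0.46 with zinc sulfate. In fold terms the Dbp differences were 1.61, 2.73, 5.21, 6.11 and 5.10 in the same order. All 5 comparisons share the same saline arrays. Zinc sulfate exceeded MSH in Dbp by 1.67 ± 0.46. The order of group means was saline (7.52), MSH (8.20), PM-HD (8.97), zinc sulfate (9.87), PM-LD (9.90) and PM-L (10.13). Only the step from PM-HD to zinc sulfate, 0.90, was larger than the SD pooled over both neighbours (0.60). The other neighbours in this order did not differ beyond their spread. Without MSH replicate 2 the Dbp difference of MSH from saline was 0.19, and without PM-HD replicate 3 that of PM-HD was 1.82. Without the 9 arrays of high Gapdh ratio the Dbp differences were 1.12 with MSH, 1.48 with PM-HD, 2.05 with PM-LD, 2.17 with PM-L and 2.24 with zinc sulfate. This MSH value comes from replicates 2 and 3 only, with Dbp signals of 798 and 245.

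**Figure D2:**
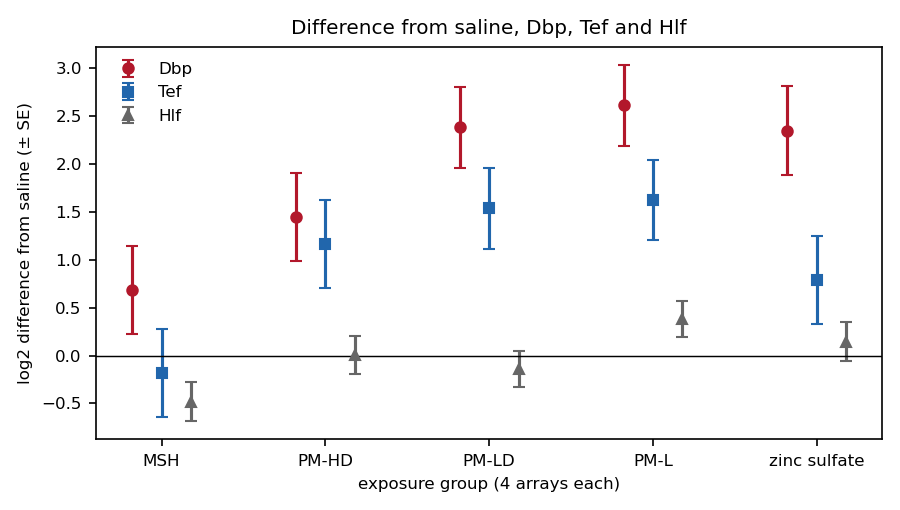
Difference from saline in normalized log2 signal for Dbp, Tef and the brighter Hlf probe set in each exposure group (4 arrays each), with bars of 1 SE. The Dbp points climb from 0.68 with MSH to 2.61 with PM-L, the Tef points from -0.18 to 1.62, and the Hlf points stay between -0.48 and 0.38.

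Tef, a second activator of D-box genes, was read by a single dim probe set at percentile 25.7 of all probe sets. Saline arrays had Tef signals of 29.2, 65.3, 16.8 and 52.2 (40.9 ± 21.9), and MSH arrays 99.6, 8.7, 10.1 and 63.9 (45.6 ± 44.2). The MSH hearts lay on both sides of the saline hearts, with 2 below the lowest and 1 above the highest. PM-HD arrays had Tef signals of 176, 67.2, 102 and 93.3 (109.8 ± 46.8). PM-LD arrays had Tef signals of 137, 105, 278 and 78.6 (149.6 ± 88.6). PM-L arrays had Tef signals of 123.5, 141, 226.5 and 139 (158 ± 46.7). All 12 hearts given whole or leached combustion PM were above the highest saline heart, as in 1.05% of all probe sets with PM-HD, 0.927% with PM-LD and 1.24% with PM-L taken 1 group at a time, and nothing is read from these shares because Tef was chosen on the same contrasts. Zinc sulfate arrays had Tef signals of 94.3, 29.8, 113 and 69.7 (76.8 ± 36.1), and here replicate 2 lay inside the saline range.

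The Tef differences from saline were -0.18 ± 0.46 with MSH, 1.16 ± 0.46 with PM-HD, 1.54 ± 0.42 with PM-LD, 1.62 ± 0.42 with PM-L and 0.79 ± 0.46 with zinc sulfate, on the same log2 scale. Zinc sulfate exceeded MSH in Tef by 0.97 ± 0.46. The groups ran from MSH (5.56) through saline (5.74), zinc sulfate (6.53), PM-HD (6.91) and PM-LD (7.28) to PM-L (7.37). Only the step from saline to zinc sulfate, 0.79, was larger than the spread of both groups (0.59). MSH replicate 2, high in Dbp, had the lowest Tef signal of all 24 arrays. Without the arrays of high Gapdh ratio the Tef differences were -1.02 with MSH, 1.39 with PM-HD, 1.34 with PM-LD, 1.62 with PM-L and 0.72 with zinc sulfate. This MSH value comes from replicates 2 and 3 only, whose Tef signals of 8.7 and 10.1 were near the floor.

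Signals of Hlf, the hepatic leukemia factor, stayed between 83.4 and 239. Its brighter probe set gave signals of 171, 121.5, 106 and 185 with saline (146 ± 38.1) and 83.4, 87.9, 120.3 and 128 with MSH (105 ± 22.5). PM-HD arrays had Hlf signals of 123.5, 129, 159.6 and 164 (144 ± 20.7), and PM-LD arrays 151, 98.2, 132.5 and 119 (125 ± 22.1). PM-L arrays had Hlf signals of 177, 175, 194.5 and 239 (196 ± 29.7), and zinc sulfate arrays 180.1, 148, 156 and 113 (149 ± 27.7). Every group overlapped the saline range, and 2 of 4 PM-L arrays exceeded its top. The Hlf differences from saline were -0.48 ± 0.20 with MSH, 0.01 ± 0.20 with PM-HD, -0.14 ± 0.19 with PM-LD, 0.38 ± 0.19 with PM-L and 0.15 ± 0.20 with zinc sulfate. Zinc sulfate exceeded MSH in Hlf by 0.63 ± 0.20. Without the arrays of high Gapdh ratio the Hlf differences were -0.39, -0.02, -0.05, 0.43 and 0.24 in the same order of groups. The order of Hlf means was MSH (6.82), PM-LD (7.16), saline (7.30), PM-HD (7.30), zinc sulfate (7.45) and PM-L (7.68). In that order, MSH to PM-LD (0.34 against a spread of 0.27) and zinc sulfate to PM-L (0.24 against 0.21) were steps larger than the pooled SD. The second Hlf probe set was near the floor, under a signal of 16 in 17 of 24 arrays and at percentile 2.31, and its highest signal was 74.1 in PM-L replicate 3.

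From heart to heart the members were alike only in part. Over the 24 arrays, the normalized log2 values of Dbp and Tef had a Pearson r of 0.54 (Spearman rho 0.59). With group means removed this r was -0.19, and it was 0.27 among the 16 hearts of the upper Dbp set and 0.02 among the 8 of the lower. For Dbp and Hlf the pooled r was 0.33 and -0.10 with group means removed. For Tef and Hlf the pooled r was 0.32 and -0.15 with group means removed. These correlations are descriptions over arrays that share 1 platform, 1 normalization and the group differences themselves. The upper and lower sets were cut on the Dbp signal itself. Any r within them, here and below, covers a narrowed range of Dbp and cannot be set against the pooled r.

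The closest companions of Dbp were the REV-ERB genes. Among 6012 singly named genes with a mean above the median of all probe sets, Nr1d1 had the highest Pearson r with Dbp (0.94 over 24 arrays, rho 0.81), followed by Nr1d2 (0.90, rho 0.88) and Tcap (0.89, rho 0.84). For Nr1d1 this r was 0.84 with group means removed, 0.46 within the upper Dbp set and 0.92 within the lower. For Nr1d2 it was 0.75 with group means removed, 0.59 within the upper set and 0.87 within the lower. Nothing is read from the values within the sets, which Dbp itself defined. The hearts that stood apart in Dbp were also the highest or lowest of their groups in both REV-ERB genes. MSH replicate 2 had an Nr1d1 signal of 874.5 against 305 to 476 in the other MSH hearts, and PM-HD replicate 3 had 431 against 735 to 1162 in the other PM-HD hearts. The Nr1d2 signal was 899.6 in MSH replicate 2 against 391 to 640.5 in the other MSH hearts. It was 607 in PM-HD replicate 3 against 945 to 1258 in the other PM-HD hearts.

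Tcap encodes telethonin, the cap of titin at the sarcomeric Z-disc, and was a bright probe set. Its mean signal was 12329 ± 2411 (SD, n = 4) with saline, 14227 ± 2233 with MSH, 15875 ± 2371 with PM-HD, 16734 ± 1494 with PM-LD, 19166 ± 1968 with PM-L and 18447 ± 2253 with zinc sulfate. The groups stood in the same order as for Dbp, except that PM-LD and zinc sulfate were exchanged. The other 2 of the 5 closest genes were Pik3ip1, an inhibitor of PI3-kinase (r = 0.74), and Smtn, which encodes the muscle protein smoothelin (r = 0.70). With group means removed, r was 0.82 for Tcap, 0.60 for Pik3ip1 and 0.465 for Smtn. Among the same genes above the median, the 5 lowest values of r with Dbp began with Slc38a2, an amino acid transporter (-0.78), and Daam1, a formin (-0.76). Asb2, a ubiquitin ligase subunit of muscle (-0.72), Gja1, the gap junction protein connexin 43 (-0.69), and Inpp5j, an inositol phosphatase (-0.63), followed. With group means removed these values were closer to zero, at -0.335 for Slc38a2, -0.38 for Daam1, -0.38 for Asb2, -0.15 for Gja1 and -0.40 for Inpp5j. Bmal1 had r = -0.67 with Dbp but was not ranked, because its mean was not above the median of all probe sets. The Slc38a2 mean signal was 2140 ± 114 with saline and 2269 ± 219 with MSH, and it was 1949 ± 149 with PM-HD, 1449 ± 98.0 with PM-LD, 1625 ± 257 with PM-L and 1501 ± 109 with zinc sulfate. Daam1 had means of 1212 ± 213 with saline, 1395 ± 149 with MSH and 1160 ± 202 with PM-HD, against 799.8 ± 114 with PM-LD, 778 ± 129 with PM-L and 827 ± 198 with zinc sulfate.

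Among genes above the same median, Tef and Hlf had no clock gene among their closest companions. For Tef the 3 highest r were those of Rnf26 (0.70), Ypel5 (0.64) and Tm9sf4 (0.62), and the 3 lowest were those of Ciapin1 (-0.70), the bZIP gene Cebpg (-0.60) and Ackr2 (-0.59). With group means removed these were 0.60, 0.08, 0.25, -0.45, -0.30 and -0.42 in the same order. For Hlf the 3 highest were those of Pfn1, the actin-binding profilin (0.65), S1pr3 (0.65) and Rdx (0.65), and the 3 lowest those of Smarca4, a chromatin remodeler (-0.74), Nup88 (-0.69) and Swi5 (-0.68). With group means removed these were 0.28, 0.55, 0.30, -0.57, -0.70 and -0.26 in the same order. The S1pr3 value was 0.38 without the 2 arrays farthest from the Hlf median. With Nr1d1, Tef had a pooled r of 0.49 and -0.29 with group means removed, and Hlf had 0.35 and 0.03.

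**Figure D3:**
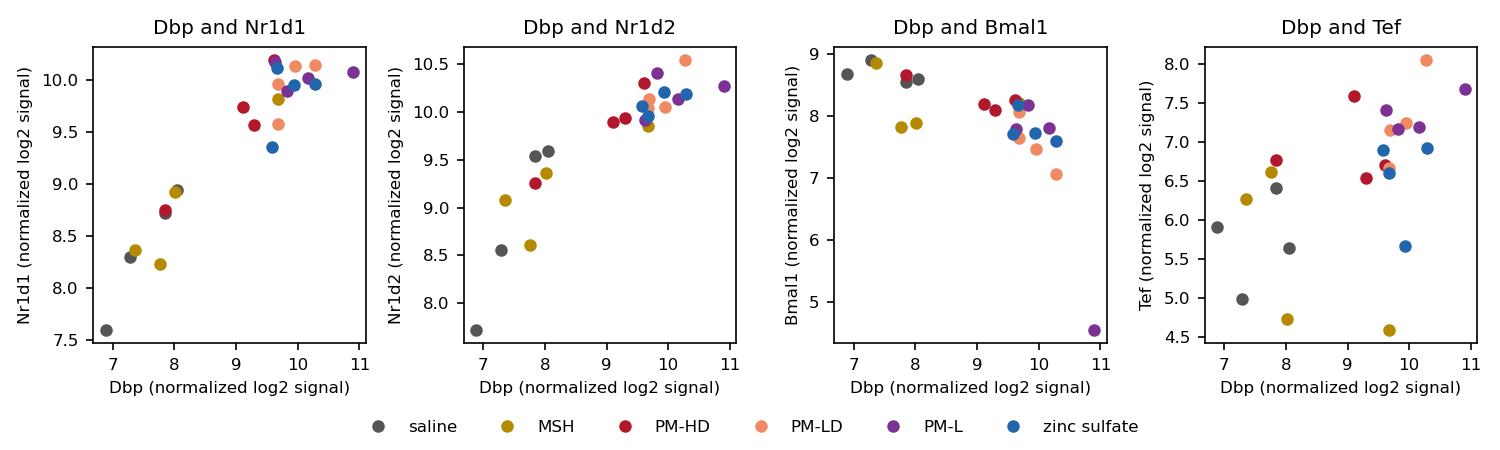
Normalized log2 signal of Nr1d1, Nr1d2, Bmal1 and Tef against that of Dbp in the 24 arrays, colored by exposure group. Nr1d1 climbs with Dbp across arrays (r = 0.94), Bmal1 declines (r = -0.67) with PM-L replicate 3 far below all others, and Tef scatters (r = 0.54).

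The other clock genes were tested with limma over all probe sets, and a gene was called when its unadjusted p was below 0.05 and its fold lay more than 25% above or below the reference group. No gene of the lists below had an adjusted p below 0.05 in any comparison, so each call rests on the unadjusted rule. Of 25 listed clock genes and related bZIP factors, 19 were measured. With MSH, 0 were higher than saline and 1 was lower (all probe sets 1.83% higher and 1.75% lower). With PM-HD, 2 were higher and 1 lower (2.04% and 1.63%). With PM-LD, 5 were higher and 1 lower (2.24% and 1.87%). With PM-L, 4 were higher and 3 lower (2.43% and 1.82%). With zinc sulfate, 5 were higher and 1 lower (2.41% and 2.05%). Against MSH, zinc sulfate had 5 higher and 0 lower (3.66% and 2.99%). The list was small and was written with earlier results known, so the counts describe these 19 genes only. Their median differences from saline were -0.01 with MSH, -0.05 with PM-HD, 0.14 with PM-LD, 0.04 with PM-L and 0.21 with zinc sulfate, while the median of all probe sets stayed within 0.01 of zero.

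The REV-ERB genes rose in every group given soluble zinc. The Nr1d1 difference from saline was 1.17 ± 0.38 with PM-HD, 1.56 ± 0.33 with PM-LD, 1.65 ± 0.33 with PM-L and 1.45 ± 0.38 with zinc sulfate (limma, unadjusted p 0.00755, 0.000111, 5.97e-05 and 0.00161, adjusted p 0.999, 0.351, 0.19 and 0.851). The Nr1d2 difference was 0.995, 1.33, 1.32 and 1.246 in the same order. With MSH the differences of 0.44 for Nr1d1 and 0.37 for Nr1d2 did not pass. Zinc sulfate also exceeded MSH, by 1.01 in Nr1d1 and 0.88 in Nr1d2, and each of these calls was lost when MSH replicate 1 or 4 was left out. The Nr1d2 call was also lost without zinc sulfate replicate 1 (0.85) or 2 (0.84) and without the arrays of high Gapdh ratio (0.51). The Nr1d2 call with PM-HD was lost without saline replicate 4 (0.62), PM-HD replicate 4 (0.84) or the arrays of high Gapdh ratio (0.69), a setting in which the Nr1d1 difference with MSH passed (0.72). The third member of this loop on the array, Rorb, an activator at the same element, was read by a dim probe set. It was lower by 1.51 with PM-L, where its signals were 11.8, 11.2, 12.3 and 66.1, all but the last near the floor. Saline signals were 60.1, 98.6, 96.7 and 78.6. Rorb differed by -0.97 with PM-LD, -0.89 with PM-HD and -0.02 with zinc sulfate without passing.

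Bmal1, whose product drives the E-box genes, differed the opposite way from Dbp. Its signals were 362, 344, 466 and 425 with saline, and 161, 221, 137 and 171 with PM-LD. PM-L arrays had Bmal1 signals of 198, 187, 12.2 and 293, and zinc sulfate arrays 161, 173, 211 and 243.5. All 12 of these hearts were below the lowest saline heart. The share of all probe sets lying below saline in this way was not counted, so nothing is read from this count. Bmal1 fell by 1.12 with PM-LD, by 1.60 with PM-L and by 0.88 with zinc sulfate. The PM-LD call was lost on leaving out any of 6 single arrays, and no single array ended the calls with PM-L and zinc sulfate, although the PM-L difference was -0.76 without PM-L replicate 3 and the zinc sulfate call did not pass in a fit of all 24 arrays. With MSH it fell by 0.48, a call also lost on leaving out any of 6 single arrays. The difference of -0.38 with PM-HD did not pass. The signal of 12.2 in PM-L replicate 3 was the lowest Bmal1 signal of all arrays, in the heart with the highest Dbp signal and the highest Gapdh ratio (5.62), and the part of RNA integrity in it was not tested. Over 24 arrays Bmal1 had r = -0.67 and rho = -0.79 with Dbp, and r = -0.47 with group means removed. Within the upper Dbp set, which holds PM-L replicate 3, r was -0.81. MSH replicate 2 was an exception, with a Bmal1 signal of 293 that lay within its own group.

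Clock, the partner of Bmal1, did not pass in any comparison by its brightest probe set, with differences from saline between -0.06 and 0.23. A dimmer Clock probe set was called lower with MSH (-0.53) and PM-LD (-0.59), so the probe sets of this gene disagreed. Nfil3, the repressor at D-box sites, fell by 0.43 with PM-HD and by 0.78 with PM-L. The PM-L value was -0.37 and no longer passed without PM-L replicate 3, which had the lowest Nfil3 signal of all arrays (105.7). The Nfil3 call with PM-HD was lost without any 1 of saline replicates 3 and 4 or PM-HD replicates 3 and 4. Without the arrays of high Gapdh ratio the Nfil3 differences were -0.12 with PM-HD and -0.11 with PM-L, and neither passed. Nfil3 did not pass with PM-LD (-0.55) or zinc sulfate (-0.36) in the main fit. The PM-LD difference passed without the arrays of high Gapdh ratio (-0.46), with a pseudocount of 64 (-0.48) or without saline replicate 2 (-0.68). The zinc sulfate difference passed without saline replicate 2 (-0.49) or zinc sulfate replicate 4 (-0.43). The r of Nfil3 with Dbp was -0.57 over 24 arrays and -0.28 with group means removed. It was -0.74 within the upper Dbp set, which holds PM-L replicate 3.

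The period genes, which act as repressors in the E-box loop, showed wide spread. Per1, Per2 and Per3 did not pass against saline in any group. Their differences from saline ranged from -1.01 to -0.03 for Per1, from 0.02 to 0.58 for Per2 and from -0.17 to 0.46 for Per3. Per3, a dim probe set, was higher with zinc sulfate than with MSH by 0.63. Cry2, a partner of the PER proteins, rose by 0.49 with PM-LD, 0.43 with PM-L and 0.41 with zinc sulfate. The E-box repressor Bhlhe40 (DEC1) rose by 0.86, 0.74 and 0.60 in the same groups, and Bhlhe41 (DEC2) rose by 1.26 with PM-LD. Each Cry2 call, the Bhlhe41 call, and the Bhlhe40 calls with PM-L and zinc sulfate were lost on leaving out 1 of several single arrays. Bhlhe41 did not pass with PM-L or zinc sulfate in the main fit. Without the arrays of high Gapdh ratio it passed with PM-L (1.01), zinc sulfate (1.04) and zinc sulfate against MSH (0.94). Without zinc sulfate replicate 3 alone, Bhlhe41 also passed with zinc sulfate against saline (1.45). The 3 Cry2 calls were also lost without the arrays of high Gapdh ratio, at 0.33 with PM-LD, 0.28 with PM-L and 0.43 with zinc sulfate. A dimmer Cry2 probe set was called higher with PM-L (0.90) and zinc sulfate (0.89) but not with PM-LD (0.54). It was also called higher with zinc sulfate than with MSH (1.40), where the brightest Cry2 probe set did not pass (0.12). Csnk1e, a kinase that acts on PER proteins, was higher with zinc sulfate than with MSH by 0.83, and the dim Cebpe, a bZIP factor of granulocytes, exceeded saline by 0.73 and MSH by 1.18 with zinc sulfate. The Csnk1e call and the Cebpe call against saline were lost on leaving out 1 of several single arrays. Without the arrays of high Gapdh ratio, Csnk1e against MSH (0.33) and Cebpe against MSH (0.88) and saline (0.76) did not pass. The Per3 call against MSH was lost with a pseudocount of 64 (0.27).

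**Figure D4:**
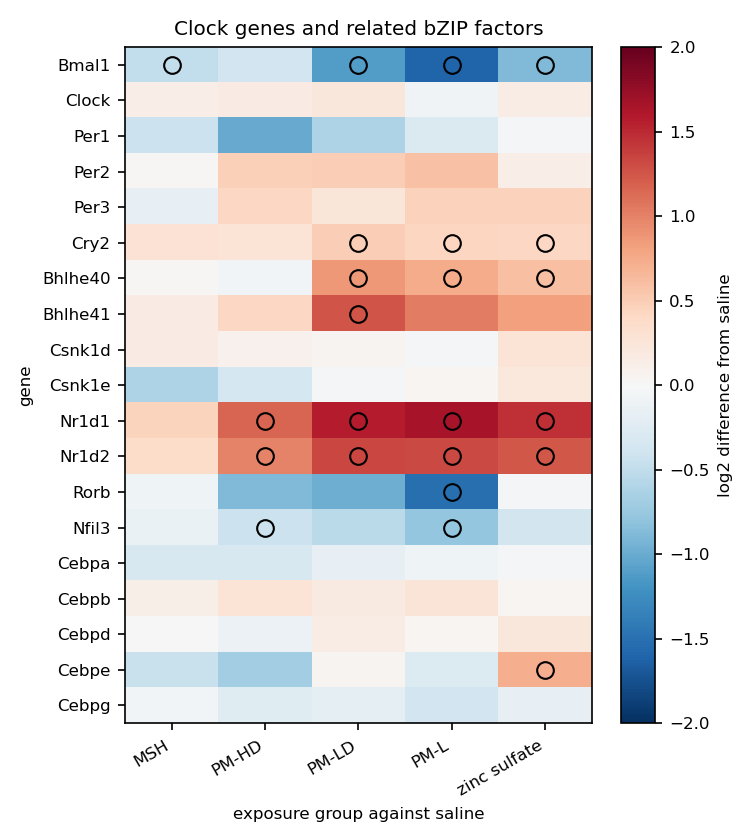
Difference from saline in normalized log2 signal for the 19 measured clock genes and related bZIP factors (rows) in the 5 exposure groups (columns), with red for higher, blue for lower and a circle where the unadjusted limma rule was passed. Nr1d1 and Nr1d2 are circled in 4 of 5 columns and Bmal1 in 4 of 5.

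Genes known in other tissues as PAR bZIP targets showed few calls in the main fit. Of 12 listed, 9 were measured, among them Por, Alas1 and Ppara, and by their brightest probe sets 0 passed with MSH, PM-HD, PM-LD or PM-L. A dimmer Por probe set was called higher with PM-LD (0.92) and zinc sulfate (0.65), so the probe sets of this gene disagreed. By the brightest probe sets, with zinc sulfate 0 were higher and 1 was lower, Tshb, the thyrotropin subunit that TEF activates in the pituitary (-0.95). Against MSH, 0 were higher and 2 lower with zinc sulfate, Tshb (-0.94) and albumin, Alb (-1.39). Both are transcripts of other organs, and the calls of both were lost on leaving out 1 of several single arrays. Without the arrays of high Gapdh ratio, Ppara passed higher with PM-L (0.79) and zinc sulfate (0.46), and Nr1i3 with PM-LD (0.65). Against MSH, that setting gained Alas1 with zinc sulfate (0.60) and lost Tshb (-0.80) and Alb (-1.53). Under the replicate block Fgf21 passed lower with PM-LD (-0.94). The mean of all Por probe sets passed higher with PM-LD (0.54) and zinc sulfate (0.45). Fgf21 and Alb also gained calls with single arrays left out. The median difference of the 9 measured genes from saline lay between -0.31 and 0.03 in the 5 groups.

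All 12 other transcripts known to be rhythmic in rodent heart were measured. Ucp3, a mitochondrial carrier, was lower with PM-L (-0.43), a call that 4 single arrays each ended when left out, and Dgat2, of triglyceride synthesis, was higher with zinc sulfate than with MSH (0.60). No other gene of this list passed in any comparison by its brightest probe set. Pdk4 passed with zinc sulfate against MSH under median centring (0.81), a pseudocount of 64 (0.65) and the replicate block (0.72). Nampt passed there under median centring (0.75), a pseudocount of 64 (0.62) and without the arrays of high Gapdh ratio (0.85). Usp2, Wee1, Fkbp5, Tsc22d3, Kcnip2 and Lpl also gained calls in some comparison under another setting. A dimmer Usp2 probe set was called higher with zinc sulfate than with MSH (0.81). One dimmer Kcnip2 probe set was called higher with PM-LD (1.41) and zinc sulfate (1.13) than with saline and with zinc sulfate than with MSH (1.37), while another was called lower in the last comparison (-1.02), so the probe sets of this gene disagreed. The median difference from saline of this list lay between -0.18 and 0.21.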

How the data were processed

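RNA of 24 rat hearts was hybridized to Affymetrix Rat 230A arrays, 4 per exposure group. The deposited values are MAS5 signal intensity values, which the authors extracted with default settings (version of the deposited run not given) and which had a trimmed mean near 500.1 on every array. The study's own tests used RMA values, not used here. The 57 control probe sets were left out and log2(signal + 16) was quantile-normalized over 24 arrays. limma 3.58.1 (R 4.3.3) was fitted to 16 arrays (saline, MSH, PM-HD, zinc sulfate) and to all 24 for PM-LD and PM-L, with 1 mean per group and no covariate. Calls used the study's thresholds, an unadjusted p below 0.05 and a fold more than 25% above or below the reference group, with Benjamini-Hochberg adjustment over 15866 probe sets. The fit was tested on simulated data. The number of arrays limits the precision.

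Probe sets were named from the platform annotation, and 12748 of 12783 with 1 symbol matched GRCr8 by gene ID. The brightest probe set stood for a gene. Named were the 3 members, every list gene called in any comparison, 8 fixed clock genes, and the 5 (Dbp) or 3 (Tef, Hlf) genes of highest and lowest Pearson r. Members and lists were chosen with earlier results of these data known. Alternatives were other pseudocounts, scalings and probe set rules, a dim filter, all arrays in 1 fit, the replicate block, single arrays left out and, chosen after seeing the data, arrays with a Gapdh ratio above 3 left out.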

Additional observations from a re-analysis of the deposited data

Results flagged for a closer look

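In 72 groups of 4 arrays, for members and clock genes, 4 held an array far from the other 3 by Dixon's criterion, and chance flags about 1 in 20 groups. Dbp in MSH replicate 2 was 798, with the nearest MSH array at 245. Nfil3 in MSH replicate 3 was 337, below the nearest at 395.5. Per2 in PM-HD replicate 4 was 1243, above the nearest at 555. Per3 in zinc sulfate replicate 2 was 21.1, below the nearest at 26.7.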

How the results depend on the processing

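Dbp kept its sign in all 5 comparisons with saline under every alternative run, while the near-zero values of Tef with MSH (-0.54 to 0.14) and Hlf with PM-HD (-0.13 to 0.13) changed sign with single arrays left out. Of 210 recomputed member values 1 moved by more than the spread between replicates, Tef with PM-L, at 1.05 with a pseudocount of 64. With single arrays left out, Dbp differed from saline by 0.19 to 0.97 with MSH, 1.23 to 1.82 with PM-HD, 2.17 to 2.56 with PM-LD, 2.35 to 2.79 with PM-L and 2.14 to 2.53 with zinc sulfate. Scalings moved the median of all probe sets by less than 0.1. Adjusted p below 0.05 left 0 called probe sets in every comparison except PM-L (2) and 0 clock list genes in every comparison, while 603 to 1154 probe sets had an unadjusted p under 0.05 (limma). Leaving out dim probe sets gave 357 called for MSH, 350 for PM-HD, 423 for PM-LD and 450 for zinc sulfate against saline (fewer probe sets tested), against 567, 583, 652 and 707. With all 24 arrays in 1 fit, clock list calls were 0 for MSH and 3 for zinc sulfate. Without the arrays of Gapdh ratio above 3, calls were 979 for PM-LD, 1105 for zinc sulfate and 2094 for zinc sulfate against MSH (main 1056), and clock list calls were 2 for MSH and 3 for zinc sulfate against MSH, and the cause was not tested. With single arrays left out, called probe sets ranged from 548 to 666 for MSH, 528 to 867 for PM-HD, 534 to 933 for PM-LD, 599 to 902 for PM-L, 579 to 1315 for zinc sulfate (highest without zinc sulfate replicate 3) and 784 to 2306 for zinc sulfate against MSH (highest without zinc sulfate replicate 3). Clock list calls then ranged from 0 to 2 for MSH, 1 to 5 for PM-HD, 3 to 7 for PM-LD, 6 to 7 for PM-L, 3 to 6 for zinc sulfate and 2 to 6 for zinc sulfate against MSH. The replicate block gave 579, 612, 729, 719, 721 and 1102 called probe sets and 1, 2, 6, 8, 4 and 5 clock list calls in the order MSH, PM-HD, PM-LD, PM-L, zinc sulfate and zinc sulfate against MSH. Same-numbered arrays correlated between -0.21 and 0.20 in their deviations, so the numbers did not pair the samples.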
